A study of Mus musculus with 8 samples.

Results

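The interferon ligands and receptors described here were 10 genes taken by name from the 51912 gene identifiers counted in every library. They were 6 receptor chains (Ifnar1, Ifnar2, Ifngr1, Ifngr2, Ifnlr1 and Il10rb) and 4 ligands (Ifnl2, Ifnl3, Ifnb1 and Ifnk), and all 10 were found. RNA sequencing had been performed on ear epidermal sheets of 8 mice, each library from a different animal. The 4 A20KIKO mice were A20F/F Krt5-CreERT2+ and the 4 A20WT mice A20F/F Krt5-CreERT2-. Both groups were 8 weeks old and received 1 mg of tamoxifen intraperitoneally on each of 2 consecutive days, and tissue was taken 7 days after the first injection. Both groups therefore carried the floxed alleles and the drug, and the groups differed in the Cre transgene as well as in what it recombines. The Krt5 promoter is active in basal keratinocytes, so other cells of the sheet are not its main target.

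Interferons are secreted alarm signals read by paired receptor chains. Type I interferons (interferon alpha, beta and kappa) bind IFNAR1 with IFNAR2, type II interferon (interferon gamma) binds IFNGR1 with IFNGR2, and type III interferons (interferon lambda, encoded in the mouse by Ifnl2 and Ifnl3) bind IFNLR1 with IL10RB. JAK1, JAK2 and TYK2 carry the signal to STAT proteins. The lambda receptor is largely a feature of epithelial cells, keratinocytes included, and A20, the product of Tnfaip3, restrains NF-kB, one of the factors that can switch on interferon genes.

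Libraries held 40451075 to 89624373 counts. In the libraries labelled A20WT, Tnfaip3 stood at 13.5 to 19.6 CPM (counts normalised to library size, with TMM scaling), and at 55.0 to 90.9 CPM in those labelled A20KIKO. The count of a whole gene does not test whether floxed exons are gone, so these levels do not check the labels, which give the groups. The 10 keratinocyte markers were all expressed, at summed levels of 51400 to 71800 CPM in A20WT and 47300 to 61300 CPM in A20KIKO libraries. Only 1 of the 10 passed the test, Krt5 itself, which fell in A20KIKO (6230 ± 575 to 3510 ± 133 CPM, SD, n = 4 each; log2 change -0.83, edgeR adjusted p = 0.00272). The median log2 change of the 10 was -0.16. The A20KIKO mouse 4 library stood apart in several genes, and in the neutrophil markers, which summed to 2930 CPM there and to 5.55 to 61.0 CPM in the other 7 libraries. In bulk tissue, fewer cells of a type and less RNA per cell cannot be told apart.

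The clearest difference among the members was in the lambda ligands. Ifnl2 and Ifnl3 together had 1 count over all 4 A20WT libraries and 241 counts over the 4 A20KIKO libraries, though at a level far below that of any receptor chain. Ifngr1 and Ifngr2, both chains of the type II receptor, rose 1.47-fold and 1.43-fold, with the Ifngr2 call at the threshold (edgeR adjusted p = 0.0492) and lost in 13 of 19 alternatives. No change in either chain of the lambda receptor passed the edgeR test, nor in either chain of the type I receptor.

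Both lambda genes lie on chromosome 7 (GRCm38), Ifnl2 (ENSMUSG00000059128) at chr7:28508836-28510455 on the minus strand and Ifnl3 (ENSMUSG00000060747) at chr7:28522836-28524322 on the plus strand, within the span of Samd4b and sharing no exon bases with it. The end of each coding sequence is shown because the genes are near copies of each other, which bears on how their counts can be divided. The stretches, from the GENCODE M21 transcripts, are coding bases 283 to 582, the last 300 up to the stop codon, and the 13 positions that differ are in capitals.
Ifnl2: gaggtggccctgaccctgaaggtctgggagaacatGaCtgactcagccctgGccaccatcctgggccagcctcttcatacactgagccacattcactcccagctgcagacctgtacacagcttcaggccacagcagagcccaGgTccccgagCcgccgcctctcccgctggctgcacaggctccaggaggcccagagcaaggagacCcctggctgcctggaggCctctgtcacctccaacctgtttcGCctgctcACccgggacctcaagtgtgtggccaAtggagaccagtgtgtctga
Ifnl3: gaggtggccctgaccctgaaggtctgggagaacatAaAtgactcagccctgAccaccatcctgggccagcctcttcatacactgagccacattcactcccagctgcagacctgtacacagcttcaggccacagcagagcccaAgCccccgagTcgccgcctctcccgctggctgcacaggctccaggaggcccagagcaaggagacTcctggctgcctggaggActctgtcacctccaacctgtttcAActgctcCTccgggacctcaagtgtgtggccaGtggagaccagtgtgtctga
Over all 582 bases the coding sequences differed at 17 positions (97.1% identical, with no gap), of which the end shown holds 13. The longest identical run, of 166 bases, opens the coding sequence and lies outside the stretch shown. Of the 433 stretches of 150 bases, the read length, in Ifnl2, 17 occurred unchanged in Ifnl3. A single read over one of those stretches fits both genes, so the split of counts between the genes is uncertain while their sum depends less on it.

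Ifnl2 had 0, 1, 0 and 0 counts in A20WT mice 1 to 4 and 60, 2, 6 and 99 counts in A20KIKO mice 1 to 4. Ifnl3 had no count in any A20WT library and 10, 1, 8 and 55 counts in the A20KIKO libraries. The lanes did not always share these counts evenly. In lanes 1 and 2, Ifnl2 had 28 and 32 counts in A20KIKO mouse 1, 5 and 1 in mouse 3, and 33 and 66 in mouse 4. Ifnl3 had 3 and 7, 8 and 0, and 28 and 27 counts in the same mice. Every A20KIKO library was above every A20WT library for both genes, but A20KIKO mouse 2 was so only by 1 count for each, and mouse 4 held 59.3% of the A20KIKO counts of Ifnl2 and 74.3% of those of Ifnl3. Without a filter on low counts, 3.75% of 28371 genes had all A20KIKO libraries above all A20WT libraries.

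**Figure D1:**
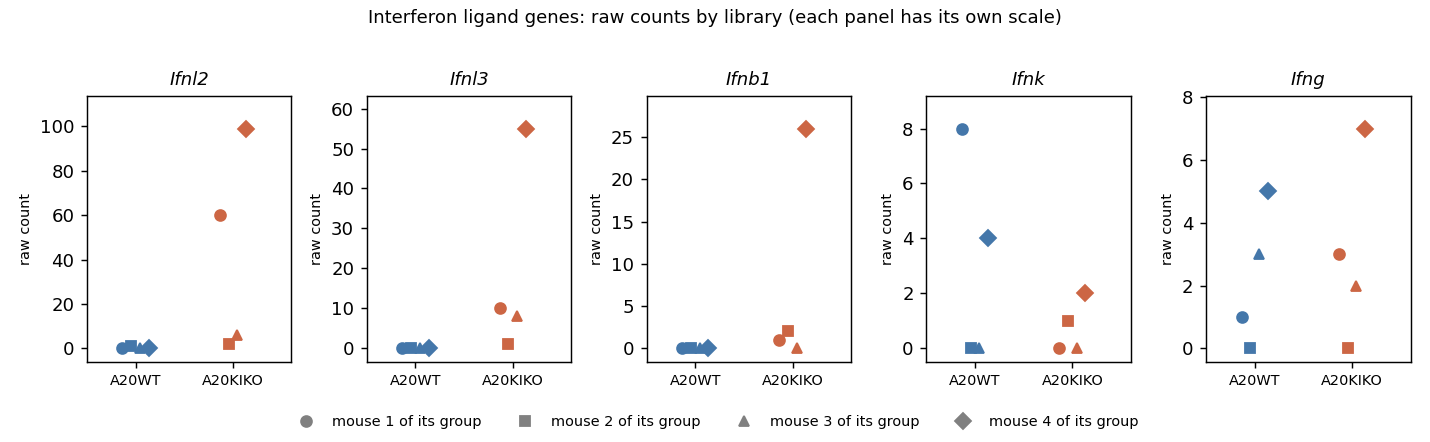
Raw counts of the 4 ligand members and Ifng in each of the 8 libraries, by group, each panel with its own scale. Ifnl2 and Ifnl3 reach 99 and 55 counts in A20KIKO mouse 4 and at most 1 count in any A20WT library, while the 12 Ifnk counts of A20WT come from 2 libraries.

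In CPM, Ifnl2 averaged 0.503 ± 0.508 (SD, n = 4) in A20KIKO and 0.00451 ± 0.00901 in A20WT. The ratio of the pooled levels was 180, with an exact 95% interval of 31.8 to 7150 that covers counting error only. For Ifnl3 (0.239 ± 0.268 CPM in A20KIKO) the level was at least 26.6-fold higher, taking the limit of 3 counts over the A20WT group as its floor. In the two-sided exact permutation test of the mean CPM, both genes gave p = 0.0286, the smallest value that 4 against 4 libraries allow. These p-values carry no adjustment for the number of ligands tested. The summed level of both genes, 0.742 ± 0.745 CPM against 0.00451 ± 0.00901 CPM, gave the same p. That p was fixed once both genes separated the groups, so it is no separate result. The SD within A20KIKO was thus as large as the difference between the groups.

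None of the 4 ligands passed the filter on low counts, so their fold changes were also read from fits to every gene with a count. Without the filter, edgeR gave adjusted p = 0.00403 for Ifnl2 and 0.00613 for Ifnl3, where 1.61% of genes were called higher. DESeq2 (adjusted p = 2.29e-05 and 0.000461, with 4.05% of genes called higher) and limma-voom (0.0178 and 0.0133, with 1.39% called higher) also called both. Leaving out A20KIKO mouse 4 lowered the difference in mean CPM from 0.5 to 0.29 for Ifnl2 and from 0.24 to 0.11 for Ifnl3, and in edgeR without the filter it ended the call of Ifnl3 (adjusted p = 0.0612) but not that of Ifnl2 (0.00279). The Ifnl2 call ended without A20WT mouse 2, the library with its only A20WT count (adjusted p = 0.107). Over the alternatives the adjusted p ran from 2.29e-05 to 0.107 for Ifnl2 and from 0.000461 to 0.0612 for Ifnl3.

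Samd4b, the gene around both lambda genes, was at 52.0 ± 10.2 CPM in A20WT and 57.5 ± 2.78 CPM in A20KIKO (log2 change 0.15, SE 0.14, edgeR adjusted p = 0.707). Its A20KIKO level was thus within the A20WT spread. Among markers of plasmacytoid dendritic cells, a cell type known for interferon output, Siglech had 2, 6, 4 and 4 counts in A20WT mice 1 to 4 and 74, 2, 12 and 116 in A20KIKO mice 1 to 4. Mouse 4 and mouse 1 were thus highest among the A20KIKO libraries for Siglech as for Ifnl2. The 9 markers of that list summed to 53.7 to 58.7 CPM in A20WT and 51.4 to 57.1 CPM in A20KIKO. Of the 7 tested, 1 (Spib) passed the test upwards, where 2.43% of all tested genes did. The median log2 change of those 7 was -0.20, with Ccr9 at -0.36, Tcf4 at -0.20, Cox6a2 at -0.31 and Runx2 at -0.43, none of which passed. Irf8, at 0.77, did not pass either (edgeR adjusted p = 0.082). The 7 were also averaged in each library as log2 CPM minus the A20WT mean. That level was 0.29 to 0.68 in A20KIKO and -0.09 to 0.16 in A20WT. Every A20KIKO library was below every A20WT library for Ccr9, as for 4.79% of all tested genes. The part of these cells in the lambda counts was not tested.

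Ifnb1 encodes interferon beta, which is made by many cell types on sensing nucleic acids (ENSMUSG00000048806, chr4:88522025-88522774, minus strand). It had no count in A20WT and 1, 2, 0 and 26 counts in A20KIKO mice 1 to 4. The A20KIKO counts were almost all from mouse 4 (89.7%), and the groups overlapped at 0. The pooled level was at least 10.4-fold higher on the same floor, but the permutation test gave p = 0.143 (two-sided, exact), and the edgeR fit without a filter gave adjusted p = 0.11. Without A20KIKO mouse 4 the difference in mean CPM fell from 0.0856 to 0.0154. Neutrophil markers were highest in that same library, and their part in the Ifnb1 counts was not tested.

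Ifnk encodes interferon kappa, the type I interferon known for its expression in keratinocytes (ENSMUSG00000042993, chr4:35152056-35154005, plus strand, within the span of Mob3b). Its counts were 8, 0, 0 and 4 in A20WT and 0, 1, 0 and 2 in A20KIKO. The groups overlapped (two-sided exact permutation p = 0.429), and all 12 A20WT counts came from lane 2 of mice 1 and 4, with 0 in lane 1 of the same libraries. No difference in Ifnk was detected at these counts, of at most 8 in a library.

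Of 17 other interferon ligand genes, 14 had no count in any library. The exceptions were Ifng (interferon gamma), Ifnz and Ifna16. Ifng had 1, 0, 3 and 5 counts in A20WT and 3, 0, 2 and 7 in A20KIKO (exact permutation p = 0.629). Ifnz had 3, 0, 1 and 0 counts in A20WT and 0, 2, 0 and 4 in A20KIKO, and Ifna16 had 2 counts in A20WT mouse 1 alone. The other 13 of 14 Ifna genes were at 0, which at these totals allows at most 0.0342 to 0.0735 CPM in a library (3 counts, counting error only). Summed over the 18 type I ligand genes, the levels were 0.116 ± 0.17 CPM in A20KIKO and 0.0559 ± 0.0682 CPM in A20WT (exact permutation p = 0.629), a difference that turned negative (-0.0231 CPM) without A20KIKO mouse 4. Summed over all 21 ligands the levels were 0.898 ± 0.917 and 0.0914 ± 0.0698 CPM (p = 0.0857, exact permutation, 3 sums tested), with 291 counts in A20KIKO and 28 in A20WT. Most of those 291 were therefore the 241 lambda counts.

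Receptor chains, in contrast, were counted deeply enough for the fit over all genes. Divided by exon length, to set genes against each other, Ifngr1 was the most abundant chain in A20WT at 52.5 ± 4.77 CPM per kb (SD, n = 4), followed by Ifngr2 at 17.7 ± 2.29 CPM per kb. Il10rb (6.34 ± 0.466), Ifnar1 (5.04 ± 0.911) and Ifnlr1 (4.97 ± 0.984) came next and could not be ordered by their libraries, since Il10rb overlapped Ifnar1 and Ifnar1 overlapped Ifnlr1. Ifnar2 was the least abundant at 2.67 ± 0.6 CPM per kb. The order of the means was the same in A20KIKO, from 77.3 ± 6.53 CPM per kb for Ifngr1 to 3.98 ± 0.519 for Ifnar2, where Ifnlr1 (4.52 ± 0.354) and Ifnar2 were the only neighbours that overlapped.

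**Figure D2:**
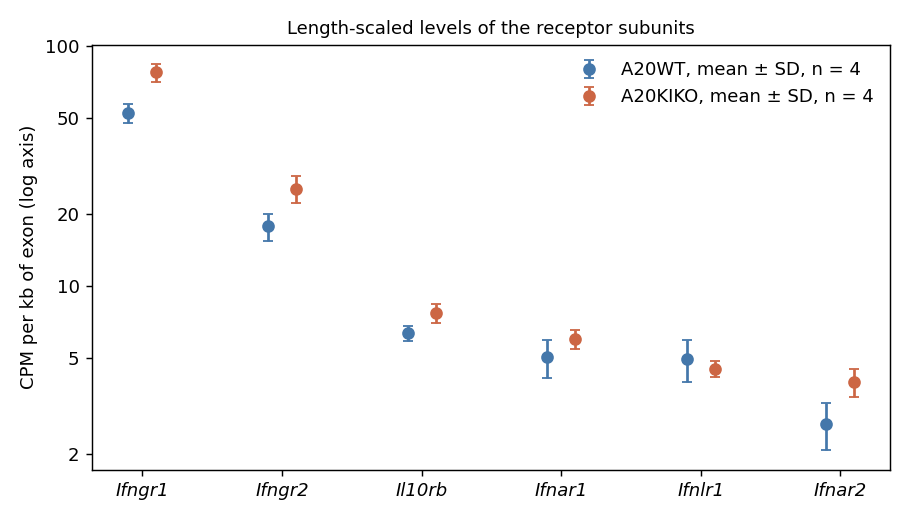
Normalised level of each receptor chain per kilobase of exon (log axis), by group; points are means and bars SD of 4 libraries. Ifngr1 is highest and Ifnar2 lowest in both groups, with means of 52.5 and 2.67 CPM per kb in A20WT.

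Ifngr1 encodes the chain of the type II receptor that binds interferon gamma (ENSMUSG00000020009, chr10:19591949-19610229, plus strand). It measured 142, 161, 161 and 134 CPM in A20WT mice 1 to 4 and 235, 229, 193 and 222 CPM in A20KIKO mice 1 to 4. The groups did not overlap, and mouse 3 was the lowest of the A20KIKO libraries. The mean rose from 149 ± 13.6 to 220 ± 18.6 CPM, which is 0.56 on the log2 scale (SE 0.11; quasi-likelihood test in edgeR, adjusted p = 0.0142).

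Ifngr2 encodes the second, signal-passing chain of that receptor (ENSMUSG00000022965, chr16:91547072-91565623, plus strand). It measured 59.9, 59.0, 72.1 and 76.1 CPM in A20WT and 101, 81.5, 89.5 and 110 CPM in A20KIKO. The groups again did not overlap, with 81.5 CPM in A20KIKO mouse 2 the closest to the 76.1 CPM of A20WT mouse 4. The mean rose from 66.8 ± 8.62 to 95.5 ± 12.6 CPM, or 0.52 on the log2 scale (SE 0.13; adjusted p = 0.0492 in edgeR). This call lay at the threshold: it was lost in 13 of 19 alternatives, where the adjusted p ran from 0.0106 to 0.162, and it was lost without 7 of the 8 libraries.

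These were the 2 of 6 receptor chains called, where 3.49% of the 16512 genes tested were called, 2.43% higher and 1.06% lower. The same 2 were those whose groups did not overlap, where 5.78% of genes had every A20KIKO library above every A20WT library. The median log2 change was 0.40 over the 6 chains and -0.01 over all tested genes, and 5 of the 6 changes were positive. The Ifngr1 call was lost without A20WT mouse 4 (adjusted p = 0.0575) and without A20KIKO mouse 1 (0.0585), while its log2 change stayed between 0.51 and 0.62 over 19 alternatives. Without A20KIKO mouse 4 it was 0.55 (adjusted p = 0.0362) and that of Ifngr2 was 0.44 (0.142).

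**Figure D3:**
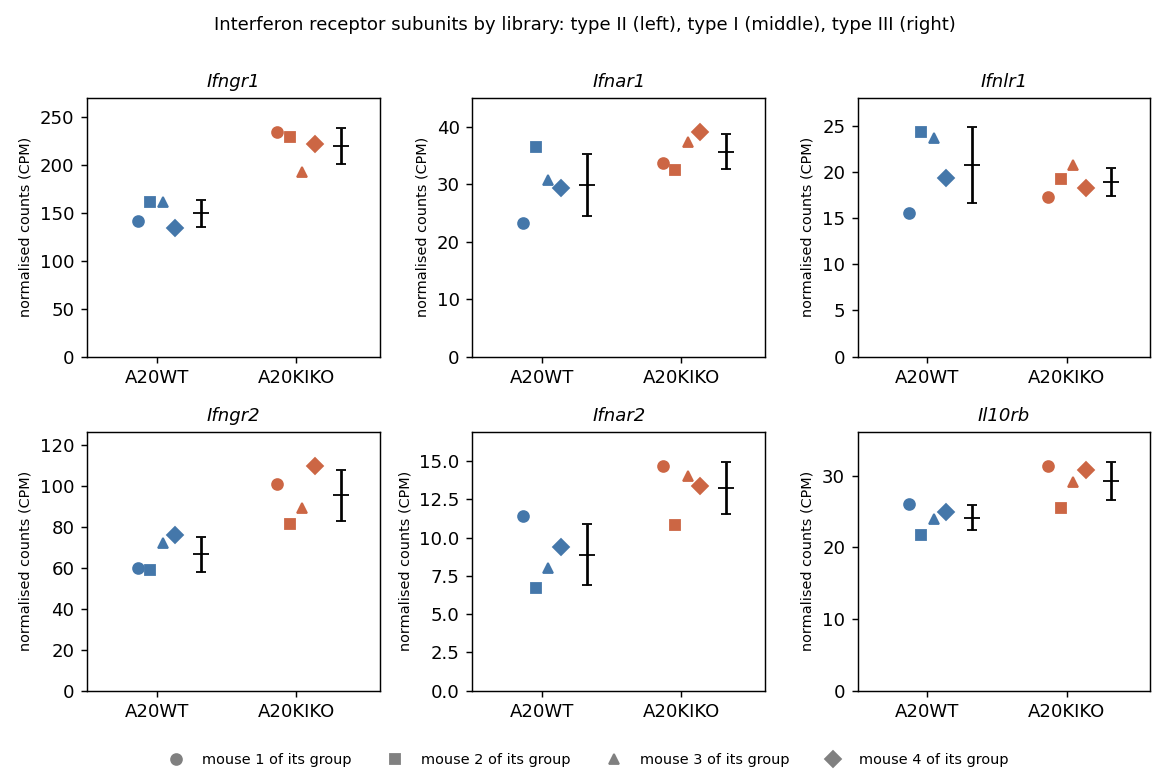
Normalised counts (CPM) of the 6 receptor chains in each library, by group; black bars mark mean ± SD of 4 libraries. The groups are separate for Ifngr1 (134 to 161 against 193 to 235 CPM) and Ifngr2 (59.0 to 76.1 against 81.5 to 110 CPM) and overlap for the other 4 chains.

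The tested monocyte and macrophage markers were on average also higher in A20KIKO, though their summed levels overlapped. Of the 11 markers, 9 were tested and 3 (Ly6c2, C1qa and C1qb) passed upwards, where 2.43% of all tested genes did. The 11 markers summed to 65.8 to 108 CPM in A20WT and 107 to 190 CPM in A20KIKO. The median log2 change of the 9 tested was 2.04. Averaged in each library as log2 CPM minus the A20WT mean, they stood at 0.69 to 2.48 in A20KIKO. In A20WT that level was -0.29 to 0.36. The T cell list had 0 of 10 markers past the test (130 to 156 against 137 to 149 CPM), and the Langerhans cell list 0 of 7 (1730 to 2350 against 2140 to 2380 CPM). Of 7 NK cell markers, the cells being a source of interferon gamma, 3 were tested, 0 passed and Klra8 was at 0. The summed fibroblast markers were lower in every A20KIKO library than in any A20WT library (39.7 to 55.3 CPM in A20WT and 15.1 to 36.7 CPM in A20KIKO, with 0 of 5 tested past the test and a median log2 change of -1.56). Melanocyte markers summed to 40.9 to 56.4 CPM in A20WT and 45.9 to 222 CPM in A20KIKO (0 of 5 past the test, median 1.33). The part of any of these cell types in the receptor changes was not tested.

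Ifnar2 encodes the high-affinity chain of the type I receptor (ENSMUSG00000022971, chr16:91372783-91405589, plus strand). It measured 11.4, 6.72, 8.04 and 9.41 CPM in A20WT and 14.7, 10.8, 14.0 and 13.4 CPM in A20KIKO. A single pair of libraries crossed, A20WT mouse 1 lying above A20KIKO mouse 2. The log2 change of 0.57 (SE 0.18) was close to that of Ifngr1 and gave adjusted p = 0.117 in edgeR. It passed with DESeq2 (0.0405) and without A20WT mouse 1 (0.72, adjusted p = 0.0382), and ran from 0.0382 to 0.298 over 19 alternatives.

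Ifnar1, the partner chain (ENSMUSG00000022967, chr16:91485238-91507441, plus strand), measured 23.3, 36.5, 30.7 and 29.4 CPM in A20WT and 33.7, 32.6, 37.4 and 39.2 CPM in A20KIKO. The groups overlapped, because A20WT mouse 2 lay above 2 of the A20KIKO libraries. The log2 change was 0.25 (SE 0.14, edgeR adjusted p = 0.449).

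Ifnlr1 encodes the chain that is specific to interferon lambda (ENSMUSG00000062157, chr4:135686287-135708181, plus strand). Its libraries ran at 15.6, 24.4, 23.7 and 19.4 CPM in A20WT and at 17.3, 19.3, 20.8 and 18.3 CPM in A20KIKO. All A20KIKO values fell inside the A20WT range, and Ifnlr1 was the only chain of the 6 with a negative log2 change (-0.14, SE 0.15, edgeR adjusted p = 0.756). The receptor chain for the ligands that rose was thus measured at 20.8 ± 4.12 CPM in A20WT and 18.9 ± 1.48 CPM in A20KIKO.

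Il10rb encodes the chain that the lambda receptor shares with the receptors for interleukin-10 and interleukin-22 (ENSMUSG00000022969, chr16:91406164-91425834, plus strand). It measured 26.0, 21.8, 23.9 and 24.9 CPM in A20WT and 31.4, 25.5, 29.2 and 30.8 CPM in A20KIKO. Only A20KIKO mouse 2 fell within the A20WT range, and the log2 change was 0.28 (SE 0.12, edgeR adjusted p = 0.272). Ifnar2 and Il10rb share 9.5% and 14.9% of their exon bases with Gm21970, a gene on the same strand that joins both and had no count, so reads in those bases may be missing from both genes.

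In simulated data of the same size, 7 of 56 genes set to a 1.5-fold difference were called, against 46 of 73 at 2-fold and 61 of 71 at 4-fold. Changes of the size seen in the receptor chains are therefore often missed, and the 4 chains that were not called are not shown to be unchanged.

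Ratios of the chains of a receptor within a library do not depend on how libraries are scaled. Per kilobase, the log2 ratio of Ifngr2 to Ifngr1 was -1.61 ± 0.21 in A20KIKO and -1.57 ± 0.26 in A20WT (difference -0.04, two-sided exact permutation p = 0.83). That of Ifnar2 to Ifnar1 was -0.60 ± 0.18 and -0.93 ± 0.59 (difference 0.32, exact permutation p = 0.371). That of Il10rb to Ifnlr1 was 0.76 ± 0.22 and 0.37 ± 0.40 (difference 0.39, exact permutation p = 0.114). No ratio of the 3 tested separated the groups, and the A20WT spread of the Ifnar2 to Ifnar1 ratio, from -1.60 in mouse 2 to -0.19 in mouse 1, was the widest.

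Promoter sequence is shown for the chains that rose together and for Ifnb1, a classic NF-kB target. The windows are the 250 bases before the gene's start in RefSeq (GRCm38.p6), read 5′ to 3′ on the gene's strand, at chr10:19591699-19591948 for Ifngr1, chr16:91546809-91547058 for Ifngr2 and chr4:88522795-88523044 for Ifnb1, with matches to the NF-kB consensus in capitals.
Ifngr1: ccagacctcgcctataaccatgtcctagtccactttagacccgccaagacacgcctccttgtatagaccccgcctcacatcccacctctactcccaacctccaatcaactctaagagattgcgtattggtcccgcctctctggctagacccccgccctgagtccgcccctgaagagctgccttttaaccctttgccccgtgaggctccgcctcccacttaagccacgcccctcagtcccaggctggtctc
Ifngr2: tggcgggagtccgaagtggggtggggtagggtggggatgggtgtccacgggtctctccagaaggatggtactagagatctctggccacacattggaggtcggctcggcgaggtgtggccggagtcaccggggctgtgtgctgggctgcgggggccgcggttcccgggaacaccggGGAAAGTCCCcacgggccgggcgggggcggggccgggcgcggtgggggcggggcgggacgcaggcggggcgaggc
Ifnb1: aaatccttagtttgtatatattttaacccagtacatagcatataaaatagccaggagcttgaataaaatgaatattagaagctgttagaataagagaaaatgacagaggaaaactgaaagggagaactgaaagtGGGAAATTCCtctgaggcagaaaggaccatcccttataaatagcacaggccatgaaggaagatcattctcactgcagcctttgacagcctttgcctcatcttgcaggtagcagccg
Windows were found for 9 of the 10 members, and each was searched on both strands for 3 motifs, of which 2 are given here. The NF-kB consensus matched in Ifngr2 (GGAAAGTCCC, first base at -75 from the start) and in Ifnb1 (GGGAAATTCC at -116), where 3.9% of 32851 promoter windows hold a match. The core of the interferon-stimulated response element (GAAA, any 2 bases, GAAA), held by 2.98% of windows, was in none of the 9. That search fixed the gap at 2 bases and passes over GAAA repeats with other gaps, such as gaaaactgaaa in the Ifnb1 window. No match overlapped another, and a match describes the letters only. The windows of Ifnl2 and Ifnl3 precede the first coding base, so that of Ifnl3 may lie downstream of where transcription begins. In GENCODE the Ifnl2 gene begins inside its window, at 28510455 in chr7:28510361-28510610. The Ifnlr1 gene likewise begins at 135686287 in its window, chr4:135686207-135686456. The Ifnl2 and Ifnlr1 windows therefore lie partly within the annotated genes.

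The genes most like the chains that were called, by the root mean square difference of centred log2 CPM over 8 libraries among 10336 genes, were B4galt1 (0.0755), Optn (0.0894) and Slc25a22 (0.0894) for Ifngr1. For Ifngr2 they were Trim25 (0.0852), an E3 ligase of antiviral sensing, Calr (0.0872), the chaperone calreticulin, and Gdpd1 (0.0886). All 6 had log2 changes between 0.43 and 0.58, and B4galt1, Slc25a22 and Trim25 were called. Genes picked for a profile like that of a called chain share its change by that choice, so these values are no separate result.

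Over all 16512 tested genes, 2.43% were called higher and 1.06% lower, with a median log2 change of -0.01. The list counts that follow are to be read beside these shares. Downstream of the receptors, 3 of 7 genes of the proximal pathway rose and 0 fell (median log2 change 0.59). Among them were Irf9 (52.0 ± 4.54 to 140 ± 31.9 CPM, log2 change 1.43, edgeR adjusted p = 0.000592) and Stat2 (20.4 ± 4.41 to 65.4 ± 19.1 CPM, 1.68, 0.00184), which act together in the nucleus after type I or type III signalling. The kinases were measured at log2 changes of 0.04 for Jak1, 0.12 for Jak2 and -0.09 for Tyk2 (adjusted p = 0.943, 0.858 and 0.871), and Stat3 at 0.59 (0.127).

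Among 8 genes that restrain the receptors, 1 rose and 0 fell (median 0.15). Usp18, which displaces JAK1 from IFNAR2, measured 4.33, 4.29, 4.44 and 3.85 CPM in A20WT and 104, 46.8, 45.5 and 84.7 CPM in A20KIKO. The lowest A20KIKO library was far above the highest A20WT library, and the log2 change was 4.05 (SE 0.27, edgeR adjusted p = 4.12e-05). Socs1 (0.86, adjusted p = 0.234) and Socs3 (0.75, 0.293), which block JAK activity, did not pass.

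**Figure D4:**
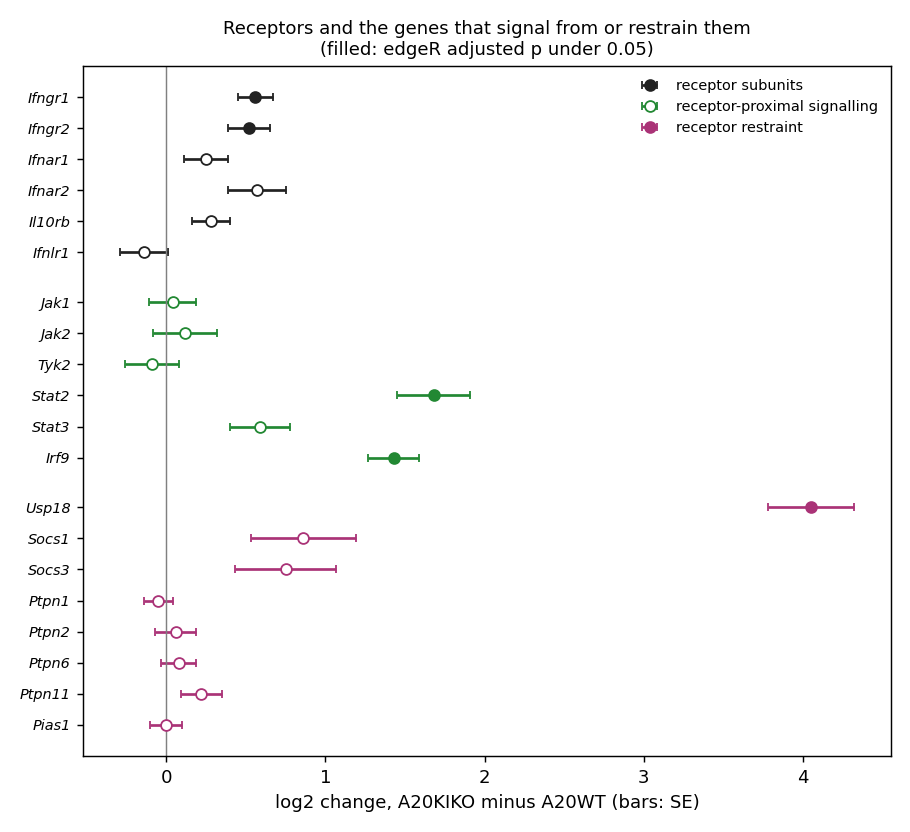
Log2 change (A20KIKO minus A20WT) with its SE for the 6 receptor chains and genes of the lists on signalling and restraint; filled points passed at an edgeR adjusted p under 0.05. The filled receptor points are Ifngr1 (0.56) and Ifngr2 (0.52), left of Stat2 (1.68) and Usp18 (4.05).

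Of 19 sensors, adaptors and factors that switch on interferon genes, 17 were tested, 7 rose and 0 fell (median 0.77). Those with the smallest adjusted p were Dhx58 (log2 change 4.38, SE 0.34, adjusted p = 8.36e-05), a regulator of RNA sensing, Irf7 (11 ± 1.97 to 123 ± 57.6 CPM, 3.48, 0.00126), the factor that amplifies type I interferon, and the RNA sensors Ifih1 (1.99) and Ddx58 (1.86), both at 0.00272. The others were Ikbke (0.87), Tmem173 (1.58) and Zbp1 (5.73). Several of these genes are themselves induced by interferon. The adaptor Mavs and the factor Irf3, measured at -0.15 each, were not called (adjusted p = 0.627 and 0.581).

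Among 6 class II cytokine receptors related to the members, 0 rose and 1 fell (median 0.15). Il20ra, a chain of receptors for the interleukin-20 group, measured 39.7, 52.0, 47.5 and 41.1 CPM in A20WT and 27.0, 28.7, 24.6 and 28.9 CPM in A20KIKO. The groups did not overlap, where 4.79% of tested genes had every A20KIKO library below every A20WT library. The log2 change of Il20ra was -0.72 (SE 0.12, edgeR adjusted p = 0.00628). The other ligands that use Il10rb did not pass the filter: Il22 had 16, 0, 10 and 7 counts in A20WT and 2, 4, 0 and 394 in A20KIKO, and Il10 had 4, 4, 8 and 5 in A20WT and 12, 1, 1 and 25 in A20KIKO. A20KIKO mouse 4 was the highest library for both, and for Il22 the other A20KIKO libraries were within the A20WT range.

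All 20 of 20 genes induced by both types I and III rose (median log2 change 5.56), with Xaf1 (3.78, edgeR adjusted p = 4.12e-05), Isg15 (4.79, 8.36e-05) and Ifit1 (7.89, 0.000514) having the smallest adjusted p. Without A20WT mouse 1 the count was 13. The list was averaged in each library as log2 CPM minus the A20WT mean, which gave 6.25, 4.00, 4.69 and 6.03 in A20KIKO mice 1 to 4 and -0.34, -0.08, 0.14 and 0.29 in A20WT. In A20KIKO mouse 2, with 3 lambda counts and 2 Ifnb1 counts, these genes were 4.00 above the A20WT mean. Mice 1 and 4, with 70 and 154 lambda counts, had the highest list levels. A link between ligand counts and the level of these genes was not tested.

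**Figure D5:**
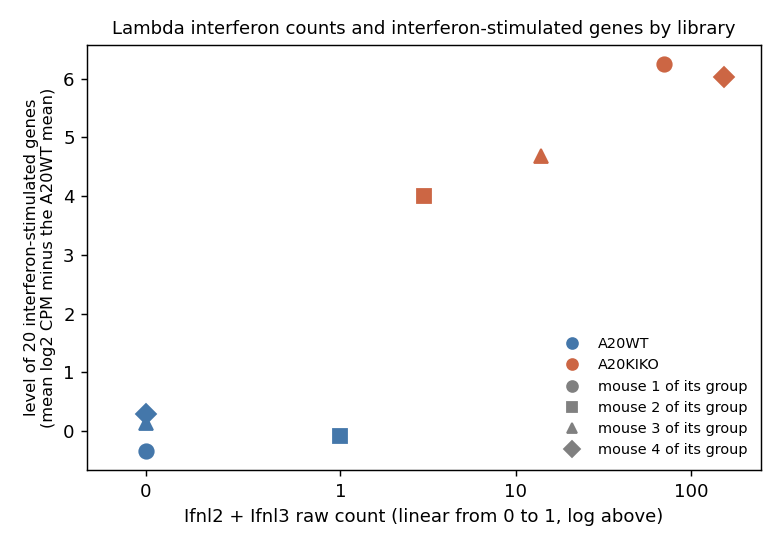
Mean level of 20 interferon-stimulated genes (log2 CPM minus the A20WT mean) against the summed raw count of Ifnl2 and Ifnl3 (linear from 0 to 1, log above), with 1 point per library. A20WT libraries lie at 0 to 1 count and levels of -0.34 to 0.29, and A20KIKO libraries at 3 to 154 counts and levels of 4.00 to 6.25.

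Of 16 genes that lean to interferon gamma, 15 were tested, 12 rose and 0 fell (median 2.20). Ifng itself had 12 counts in A20KIKO and 9 in A20WT. Which signal raised the genes of this list was not tested. Icam1 (log2 change 2.20, edgeR adjusted p = 0.000265), an adhesion molecule that NF-kB also induces, Irf1 (1.95, 0.00058), a transcription factor, and Tap1 (1.17, 0.000924), a peptide transporter, had the smallest adjusted p. Ciita (0.29, adjusted p = 0.613) and H2-Ab1 (0.16, 0.631), the class II part of this list, did not pass, nor did Iigp1 (3.63, 0.107). Without A20KIKO mouse 4, the counts of these lists were 3 for signalling, 1 for restraint, 7 for induction, 20 for the shared genes and 12 for the gamma-leaning genes.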

How the data were processed

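Libraries were made from poly-adenylated RNA with full-length, PCR-amplified cDNA and tagmentation, per the labels' protocols, which keep neither strand nor molecular identifiers. The authors deposited raw read counts per Ensembl gene in 2 lane columns a library, which were summed here. The submitters' processing notes list 2 builds (GRCm38.p5, GRCh38) and, with no roles, STAR 2.4.2a, Picard 1.139 and HTSeq 0.6.1p1. Annotation release, counting options and filters: not given in the sources used here. Symbols were matched for 51633 of 51912 identifiers.

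Counts were fitted in R 4.3.3 with edgeR 4.0.16 (filterByExpr with a minimum count of 10 and total of 15, TMM, robust quasi-likelihood, group as the only term; TMM is edgeR's trimmed-mean scaling). The Benjamini-Hochberg adjustment covered all 16512 genes kept, and genes were called at an adjusted p under 0.05. SE is |log2 change| over the square root of F. Of the 10 members, the 6 receptor chains and none of the ligands passed the filter. Ligands, sums and ratios had two-sided exact permutation tests over 70 splits (SciPy 1.17.1). Intervals and floors cover counting error only. DESeq2 1.42.0 and limma 3.58.1 were alternatives, with other size factors, filters, a replicate block and each library left out. Each lane alone, limma-voom without a filter, and each library left out without a filter were added after the data were seen.

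The members and gene lists were chosen with earlier results of these data known. Named were all members, every other interferon ligand with a count, up to 3 called genes per list by adjusted p (2 by level if none), and the 3 genes most like each called member (1 listed gene and 1 motif are not reported here); Tnfaip3, Krt5, Samd4b, Siglech, other cell markers, the monocyte genes, further list members and Gm21970 were named after their values were seen. The fit was tested on simulated counts of 16512 genes, with 0 changed genes called in the wrong direction and 10 unchanged genes called.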

Additional observations from a re-analysis of the deposited data

Results flagged for a closer look

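In 3 of 34 groups of 4 libraries checked, 1 library stood far from the others. The rate of about 1 in 20 groups that the rule takes for chance does not hold for counts near 0, where a single count can flag a library. Ifnb1 was at 0.296 CPM in A20KIKO mouse 4 and at 0 to 0.0346 CPM in the other 3 A20KIKO libraries. Ifnl2, and the sum of Ifnl2 and Ifnl3, were at 0.018 CPM in A20WT mouse 2 and at 0 in the other 3 A20WT libraries, which is a single count.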

How the results depend on the processing

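Of the receptor chains, 2 were called, and 1 under upper quartile factors, library totals, a filter of 5 CPM in 4 libraries, limma-voom, non-robust dispersions and lane 2 alone. Leaving out each library gave 0 to 2, with 0 without A20WT mouse 4 or A20KIKO mouse 1. The 576 genes called became 374 under the 5 CPM filter and 1170 with DESeq2, and 348 to 619 with a library left out (355 without A20WT mouse 3 and 348 without A20KIKO mouse 1). The 20 shared interferon-stimulated genes became 13 to 20 with a library left out. The summed type I ligand difference ran from -0.0231 to 0.0983 CPM and was negative without A20KIKO mouse 4. The log2 difference of the Ifngr2 to Ifngr1 ratio ran from -0.14 to 0.07, at 0.07 without A20WT mouse 4 and 0.05 without A20KIKO mouse 2. The cause of these shifts was not tested. The lambda difference of 0.74 CPM ran from 0.40 to 0.97 with a library left out.

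Same-numbered mice deviated together little (correlations of 0.0407, 0.0645, -0.0142 and 0.237, and 1 of 4 numbers correlated best with its own). The labels give them only a shared number, and these correlations cannot exclude that they shared something else. With the replicate block, 2 receptor chains and 551 genes were called, Ifngr1 with adjusted p = 0.0371, Ifngr2 with 0.0455 and Ifnar2 with 0.0759 in edgeR. Flipping the sign of the differences between same-numbered mice, an exact permutation, gave p = 0.125 for the lambda sum, the smallest that 4 pairs allow. Under the block the list counts were 3 for signalling, 1 for restraint, 7 for induction, 1 for class II receptors, 19 for the shared genes and 11 for the gamma-leaning genes, against 3, 1, 7, 1, 20 and 12 without it. For the permutation tests of the ligands, library totals were the only other scaling run, with p = 0.0286 again for the lambda sum, 0.686 for the type I sum and 0.0571 for all 21 ligands (exact permutation), and count filters play no part in them. Ligand counts were 0 to 99 a library.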
